A study of Mus musculus with 9 samples.

Results

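Antiviral interferon-stimulated genes are the effector genes that a cell switches on when it senses interferon. The set described here holds 44 genes chosen by name, with earlier results of these data known. Of these, 42 had a line in the deposited table of 16398 genes. Counts were high enough to test 41 of these 42, among 11739 genes tested in all. Mx1 and Mx2 are not analysed here, and Zbp1 was listed but fell under the count filter. The OAS, GBP and IRF families were not part of the set.

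Type I interferons bind the receptor IFNAR1-IFNAR2, whose kinases JAK1 and TYK2 pass the signal on by phosphorylation. The complex ISGF3, which holds STAT2 and IRF9, then binds interferon-stimulated response elements (ISREs) in the promoters of its target genes. The products of these genes sense viral nucleic acid, block viral entry, translation or release, or modify proteins by ADP-ribose or by the ubiquitin-like protein ISG15. Microglia, the resident macrophages of the brain, express many of them at rest and more of them during infection, ageing and neurodegeneration.

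The cells were BV2, a line immortalised from mouse microglia and labelled wild type, and their RNA was measured 48 h after the knockdown system was introduced. The 3 groups were cells given siRNA 644 against Nus1, cells given siRNA 878 against Nus1, and control cells labelled NC, with 3 biological replicates each. NUS1 pairs with DHDDS to make the lipid from which dolichol, the sugar carrier of protein glycosylation, is formed. The labels describe siRNA mixed with RNAiMAX as the treatment and do not say what the control cells received. Whether the replicates came from separate transfections is not stated either, so p-values measure only the spread among these 9 libraries of 1 cell line.

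The libraries held 19362331 to 20224707 estimated counts. Values for single genes are given in CPM, each count over its library's effective size by TMM, and levels of different genes are set side by side only in FPKM, which divides by gene length. Nus1 had 3.94, 4.15 and 3.46 CPM with siRNA 644, 8.01, 3.73 and 8.35 CPM with siRNA 878, and 51.4, 50.1 and 53.4 CPM in control, so that each siRNA library lay far under each control library. Of 11 markers of microglia and macrophages, Cd68, Tyrobp and Spi1 were abundant in every group, at 308 FPKM with siRNA 644, 265 FPKM with siRNA 878 and 276 FPKM in control for Spi1, whereas P2ry12 and Tmem119, which mark microglia in the brain, were between 0.297 and 1.41 FPKM. The summed level of the 11 was 2513 to 2569 FPKM with siRNA 644, 2044 to 2467 FPKM with siRNA 878 and 2371 to 2573 FPKM in control. Of the 11, 2 fell with siRNA 644 and 4 with siRNA 878, while 15.0% and 15.5% of all tested genes fell. With each siRNA 0 of the 11 rose, while 16.6% and 16.0% of all tested genes rose. Cx3cr1, which encodes the fractalkine receptor of microglia, had 3.57, 4.25 and 3.98 CPM with siRNA 644, 3.08, 3.05 and 3.17 CPM with siRNA 878, and 26.8, 22.7 and 24.8 CPM in control, so that each siRNA library lay far below each control library. Its change on the log2 scale was -2.65 (SE 0.114, edgeR adjusted p = 1.54e-06) with siRNA 644 and -3.00 (SE 0.117, edgeR adjusted p = 1.14e-06) with siRNA 878. Aif1, which encodes the marker IBA1, had 6.61, 4.84 and 5.74 CPM with siRNA 644, 4.31, 4.69 and 2.82 CPM with siRNA 878, and 8.397, 9.87 and 8.09 CPM in control, again with no overlap between siRNA and control libraries. Such a separation below control was shown by 27.7% of all tested genes with siRNA 644 and 22.6% with siRNA 878. Aif1 changed by -0.62 (SE 0.196, edgeR adjusted p = 0.0412) with siRNA 644 and -1.16 (SE 0.202, edgeR adjusted p = 0.002604) with siRNA 878 on the log2 scale. Cd68, with -0.34 (SE 0.101, edgeR adjusted p = 0.0301), and Itgam, with -0.48 (SE 0.135, edgeR adjusted p = 0.0248), were called lower with siRNA 878 and not called with siRNA 644, and the difference of Itgam between siRNA 878 and siRNA 644 was -0.71 (SE 0.135, edgeR adjusted p = 0.0412). With siRNA 644 the mean of Itgam was 116.7% of control. Adgre1 (140.2% of control with siRNA 644 and 156.9% with siRNA 878), Tyrobp (119.3% and 127.8%) and Csf1r (120.5% and 116.9%) had means above control and were not called. Means of Spi1 and Tmem119 were also above control and those of P2ry12 and Ptprc below, again without a call. The part of these markers in the changes of the set was not tested. Marker lists of neurons, astrocytes, oligodendrocytes, endothelial cells, fibroblasts and lymphocytes each summed to at most 1.47 FPKM in any library, and the astrocyte marker Gfap was at 0 in every siRNA 878 and control library. The siRNA 878 libraries were uneven, and replicate 2 stood apart from the others as described at the end.

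The following stretches of promoter are shown because they carry the letters that ISGF3 is known to recognise. They lie beside genes called lower with both siRNAs, beside Ifit1, called lower with siRNA 644 only, and beside Slfn8, called with neither. Each is taken from RefSeq on GRCm38.p6, on the gene's own strand from 5′ to 3′, with 20 bases on either side of the matches. Capitals mark matches to the ISRE core, which is GAAA, any 2 bases and GAAA again, or to its reverse complement.
Isg15, chr4:156200855-156200916: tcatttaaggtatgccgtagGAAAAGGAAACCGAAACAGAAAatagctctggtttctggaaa
Ifit1, chr19:34640765-34640833: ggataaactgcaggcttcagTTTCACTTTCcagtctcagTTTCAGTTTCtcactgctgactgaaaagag
Rsad2, chr12:26456543-26456592: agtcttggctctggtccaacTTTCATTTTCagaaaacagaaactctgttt
Bst2, chr8:71537567-71537622: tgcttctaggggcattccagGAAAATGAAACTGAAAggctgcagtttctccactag
Apol9a, chr15:77411104-77411159: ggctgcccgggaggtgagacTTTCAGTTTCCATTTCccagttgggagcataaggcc
Slfn8, chr11:83020829-83020878: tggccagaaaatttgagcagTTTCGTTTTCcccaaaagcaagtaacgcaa

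Isg15 lies on the minus strand, and its 3 matches run into each other from -78 relative to the start site. Ifit1 lies on the plus strand and has 2 separate matches, the first at -104. The windows of Rsad2, Bst2, Apol9a and Slfn8 lie on the minus strand. Apol9b, on the plus strand of the same chromosome, has the same 56 letters in its promoter as Apol9a, and the windows of Ifit3 and Ifit3b are also identical to each other. Slfn8 carries 1 match, and its RNA level did not pass the test with either siRNA.

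The first comparison asks how the set responded to siRNA 644. Of 41 tested genes, 35 fell and 1, Tor3a, rose (edgeR quasi-likelihood test with p-values adjusted by Benjamini-Hochberg, called under 0.05), whereas 15.0% of all tested genes fell and 16.6% rose. The median log2 fold change was -1.07 over the set and -0.0055 over all tested genes. With siRNA 878, 33 of 41 fell and 0 rose, against backgrounds of 15.5% and 16.0% of all tested genes. At an unadjusted edgeR p under 0.05, 0 of the 41 were higher with siRNA 878, against 21.9% of all tested genes. After adjustment 0 of the 41 were higher by DESeq2, against 18.8% of all tested genes, and 0 by limma, against 13.5% on log2(FPKM + 1) and 13.6% on log2(FPKM + 0.1). The median with siRNA 878 was -0.94, against 0.0038 over all tested genes. Both comparisons use the same 3 control libraries, so they are not independent of each other. The set was chosen with earlier results of these data known, so its shares beside those of all tested genes are description and not a test.

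Falls of at least 2-fold were seen for 21 of the 41 genes with siRNA 644, against 2.56% of all tested genes, and for 18 with siRNA 878, against 3.29%. In 38 genes all 3 siRNA 644 libraries lay below all 3 control libraries, an arrangement that 27.7% of all tested genes showed. The same held for 36 genes with siRNA 878, against 22.6% of all tested genes. The genes that were not called lower with siRNA 644 were Slfn5, Slfn8, Dtx3l, Parp10, Ifi209 and Tor3a. With siRNA 878 they were Ifit1, Parp14, Trim30a, Slfn8, Dtx3l, Parp10, Ifi209 and Tor3a. In bulk RNA, fewer cells that express a gene and less RNA per cell cannot be told apart.

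**Figure D1:**
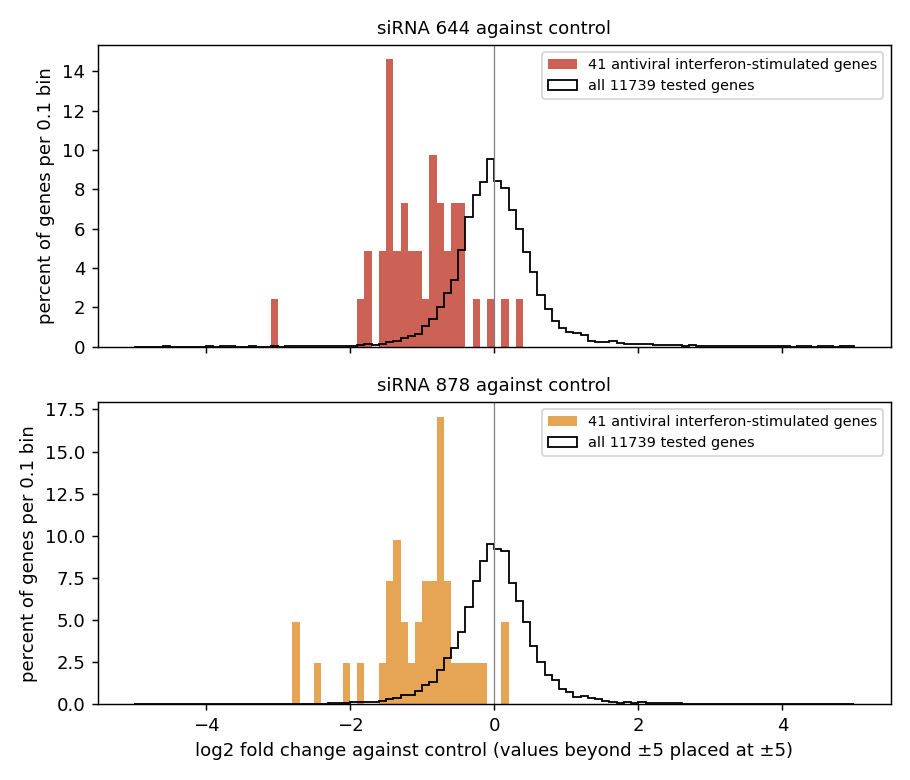
Distribution of log2 fold changes for the 41 tested antiviral genes (filled bars) and for all 11739 tested genes (black outline), as a percentage of genes per bin of 0.1, for siRNA 644 against control (top) and siRNA 878 against control (bottom). The outline is centred near 0 in both panels, and the bars lie mostly to its left, with medians of -1.07 and -0.94.

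Levels in control cells spanned a wide range. Bst2, at 418 ± 39.5 FPKM (SD, n = 3), and Ifitm3, at 367 ± 41.8 FPKM, were the highest of the set, and their ranges overlapped. Isg15 and Lgals3bp came next, at 143 ± 10.1 and 138 ± 4.93 FPKM, and differed by less than their spread. In all, 27 of the 42 genes averaged at least 10 FPKM in control, and 3 were below 1 FPKM, namely Ifih1, Slfn5 and Zbp1. The summed level of the set was 819.2 to 912.6 FPKM with siRNA 644, 779.3 to 917.7 FPKM with siRNA 878 and 1723 to 1894 FPKM in control.

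**Figure D2:**
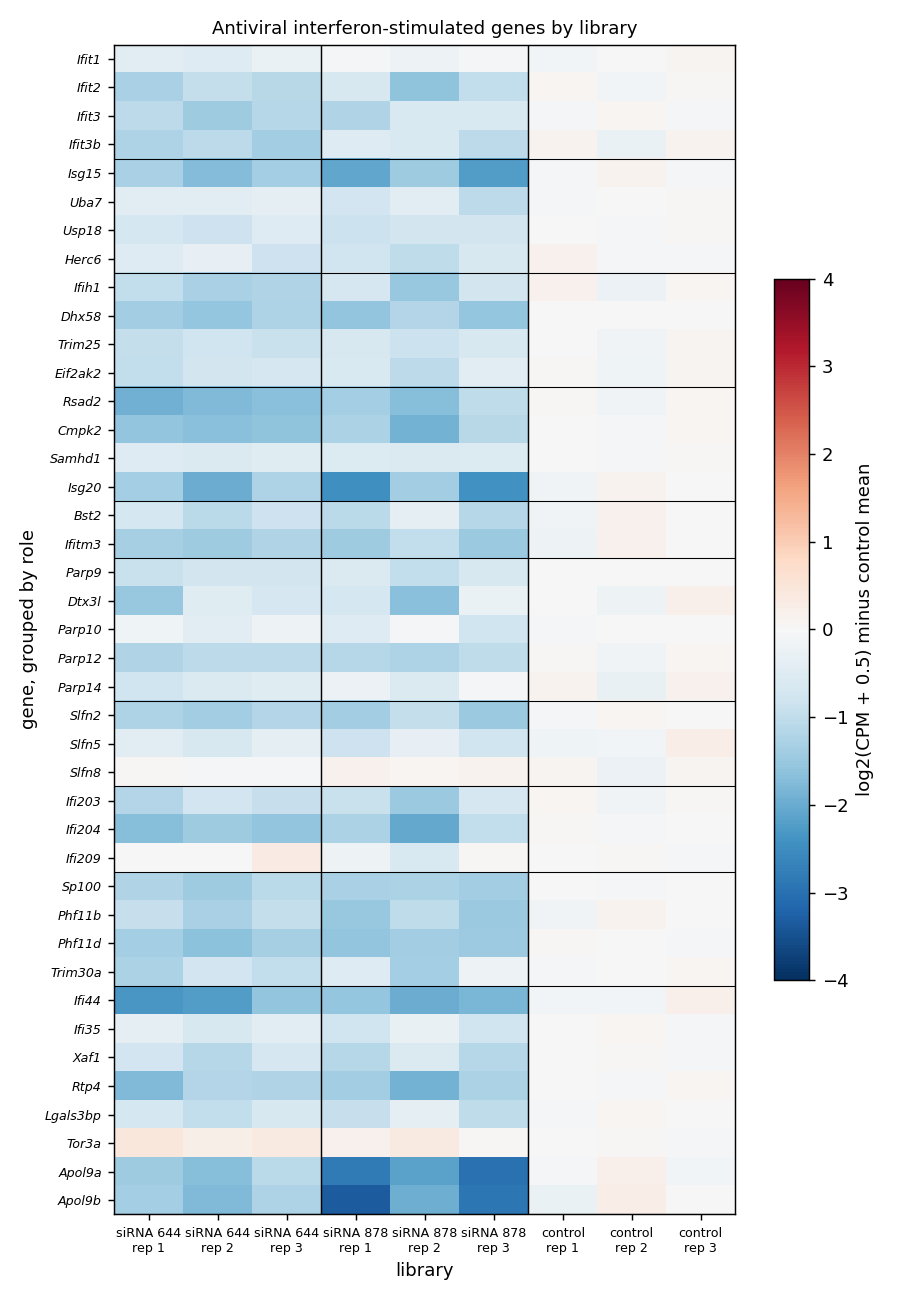
log2(CPM + 0.5) of each tested gene in each library, minus its control mean, on a colour scale from -4 (blue) to 4 (red). Columns are the siRNA 644, siRNA 878 and control libraries and lines separate the role groups. Blue fills most of the 6 siRNA columns, while Slfn8, Ifi209 and Tor3a stay pale or turn red.

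Of the IFIT proteins, IFIT1 binds viral RNA that lacks the host's cap structure and blocks its translation. The 4 IFIT genes of the set lie together on chromosome 19 from 34550550 to 34650009, in positions as the table gives them. With siRNA 644 4 of 4 fell, and with siRNA 878 3 of 4. Ifit2 (NCBI gene 15958, chromosome 19) had 6.09, 7.805 and 6.98 CPM with siRNA 644, 9.81, 4.75 and 7.65 CPM with siRNA 878, and 16.6, 14.4 and 16.1 CPM in control. All siRNA libraries lay below all control libraries, and siRNA 878 replicate 2 was the lowest of the 9. The log2 fold change came to -1.17 (SE 0.227, edgeR adjusted p = 0.00471) with siRNA 644 and -1.08 (SE 0.226, edgeR adjusted p = 0.00678) with siRNA 878. Ifit3 (NCBI gene 15959, chromosome 19) had 4.98, 3.75 and 4.71 CPM with siRNA 644, 4.47, 6.95 and 6.94 CPM with siRNA 878, and 10.6, 11.6 and 10.6 CPM in control. The groups did not overlap with control, and the log2 fold change was -1.29 (SE 0.186, edgeR adjusted p = 0.00107) with siRNA 644 and -0.84 (SE 0.182, edgeR adjusted p = 0.00813) with siRNA 878.

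Ifit3b (NCBI gene 667370, chromosome 19), a near-identical copy of Ifit3, was low throughout, with 0.6296, 0.7904 and 0.517 CPM with siRNA 644, 1.39, 1.24 and 0.805 CPM with siRNA 878, and 2.45, 1.72 and 2.46 CPM in control. Each siRNA library was below each control library, and each siRNA 878 library was above each siRNA 644 library. On the log2 scale the change was -1.76 (SE 0.273, edgeR adjusted p = 0.00152) with siRNA 644 and -0.95 (SE 0.252, edgeR adjusted p = 0.0201) with siRNA 878. The siRNA 878 call was lost without siRNA 878 replicate 3 (-0.74, edgeR adjusted p = 0.0533), control replicate 1 (-0.87, 0.0755) or control replicate 3 (-0.86, 0.0744). Ifit1, the fourth of the family, had a smaller fold change of -0.43 (SE 0.128, edgeR adjusted p = 0.0319) with siRNA 644 and -0.13 (SE 0.127, edgeR adjusted p = 0.483) with siRNA 878. The siRNA 644 call of Ifit1 was lost without either of replicates 1 and 2 of siRNA 644 or any 1 control library (edgeR adjusted p = 0.0528 to 0.118). With offsets for GC content and length it was -0.23 and did not pass (edgeR adjusted p = 0.299). Since the authors' counting could divide reads between Ifit3 and Ifit3b, the split between them is uncertain.

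ISG15 is attached to other proteins by UBA7, which activates it, and HERC6, a ligase in mice, and is removed by USP18, which also restrains signalling at the interferon receptor. All 4 genes fell with both siRNAs. Isg15 (NCBI gene 100038882, chromosome 4, 156199424 to 156200818) had 39.2, 29.2 and 37.6 CPM with siRNA 644, 22.7, 36.5 and 20.4 CPM with siRNA 878, and 94.4, 108 and 91.9 CPM in control. Every siRNA library lay far below every control library, with replicate 2 the highest of the siRNA 878 libraries. Its log2 fold change was -1.47 (SE 0.212, edgeR adjusted p = 0.00105) with siRNA 644 and -1.89 (SE 0.216, edgeR adjusted p = 2.89e-04) with siRNA 878, so that the mean was 36.02% of control with siRNA 644 and 27.03% with siRNA 878. Usp18 (NCBI gene 24110, chromosome 6) had 38.04, 34.6 and 43.6 CPM with siRNA 644, 34.2, 37.5 and 37.1 CPM with siRNA 878, and 63.1, 59.2 and 64.04 CPM in control. The siRNA groups overlapped each other and lay below control, and the log2 fold change was -0.68 (SE 0.0981, edgeR adjusted p = 0.00104) with siRNA 644 and -0.78 (SE 0.0983, edgeR adjusted p = 4.87e-04) with siRNA 878. Uba7 was at 25.02 ± 0.8202 CPM with siRNA 644, 20.04 ± 4.29 CPM with siRNA 878 and 33.5 ± 1.45 CPM in control (SD, n = 3 each), and its log2 fold change was -0.42 (SE 0.141, edgeR adjusted p = 0.0493) with siRNA 644 and -0.74 (SE 0.142, edgeR adjusted p = 0.004302) with siRNA 878. The corresponding values of Herc6 were -0.59 (SE 0.173, edgeR adjusted p = 0.03096) with siRNA 644 and -0.89 (SE 0.176, edgeR adjusted p = 0.00519) with siRNA 878. With siRNA 644, the calls of Uba7 and Herc6 were each lost when single libraries were left out (edgeR adjusted p = 0.0730 to 0.135 for Uba7 and 0.0571 to 0.121 for Herc6). That of Uba7 was also lost with no filter (0.0578) or the stricter one (0.0526), and that of Herc6 in limma on log2(FPKM + 0.1) (adjusted p = 0.0509).

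Of the sensors of viral nucleic acid, 4 of 4 tested genes fell with each siRNA. Dhx58 (NCBI gene 80861, chromosome 11, 100687417 to 100704271), which encodes the RNA helicase LGP2, had 15.2, 13.7 and 17.1 CPM with siRNA 644, 13.4, 17.8 and 13.6 CPM with siRNA 878, and 40.7, 40.9 and 40.7 CPM in control. The control libraries lay within a narrow range, and the highest siRNA library, siRNA 878 replicate 2, was well below it. This gave a log2 fold change of -1.41 (SE 0.131, edgeR adjusted p = 9.94e-05) with siRNA 644 and -1.45 (SE 0.131, edgeR adjusted p = 8.63e-05) with siRNA 878. Trim25 (NCBI gene 217069, chromosome 11), a ubiquitin ligase that acts with the RNA sensor RIG-I, had 106, 118 and 111 CPM with siRNA 644, 133, 113 and 131 CPM with siRNA 878, and 209, 185 and 224 CPM in control. No siRNA library reached the lowest control library, and the log2 fold change was -0.88 (SE 0.0979, edgeR adjusted p = 2.499e-04) with siRNA 644 and -0.71 (SE 0.0976, edgeR adjusted p = 7.41e-04) with siRNA 878.

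Ifih1, which encodes the RNA sensor MDA5, and Eif2ak2, which encodes PKR, a kinase that stops translation upon binding double-stranded RNA, were also lower. Ifih1 was at 1.52 ± 0.234 CPM with siRNA 644, 1.88 ± 0.705 CPM with siRNA 878 and 4.06 ± 0.605 CPM in control (SD, n = 3 each), with a log2 fold change of -1.41 (SE 0.273, edgeR adjusted p = 0.00464) with siRNA 644 and -1.10 (SE 0.267, edgeR adjusted p = 0.0135) with siRNA 878. Without control replicate 1 the siRNA 878 call of Ifih1 was lost (-1.01, edgeR adjusted p = 0.0550). Eif2ak2 was at 49.4 ± 5.86 CPM with siRNA 644, 53.3 ± 10.8 CPM with siRNA 878 and 85.98 ± 8.72 CPM in control (SD, n = 3 each), with a log2 fold change of -0.80 (SE 0.159, edgeR adjusted p = 0.00543) with siRNA 644 and -0.69 (SE 0.159, edgeR adjusted p = 0.0106) with siRNA 878. Zbp1, a sensor of Z-form nucleic acid, had 0, 0 and 0 counts with siRNA 644, 0, 0 and 0 with siRNA 878 and 1, 2 and 1 in control, which is too few for a fold change.

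The enzymes that act on nucleotides or RNA were 4 of 4 lower with each siRNA. Samhd1 (NCBI gene 56045, chromosome 2), which hydrolyses deoxynucleotides, had 195, 186 and 197 CPM with siRNA 644, 189.7, 187 and 193 CPM with siRNA 878, and 282, 267 and 289 CPM in control. Replicates lay close together in all groups and siRNA and control libraries did not overlap. Its log2 fold change was small but narrow, at -0.53 (SE 0.0641, edgeR adjusted p = 3.76e-04) with siRNA 644 and -0.56 (SE 0.0641, edgeR adjusted p = 2.97e-04) with siRNA 878. Isg20 (NCBI gene 57444, chromosome 7), an RNA exonuclease, had 13.2, 8.35 and 14.5 CPM with siRNA 644, 5.96, 12.8 and 6.04 CPM with siRNA 878, and 31.4, 37.8 and 34.8 CPM in control. The siRNA libraries varied widely within each group, yet all lay far below the lowest control library. The log2 fold change came to -1.53 (SE 0.302, edgeR adjusted p = 0.005204) with siRNA 644 and -2.08 (SE 0.311, edgeR adjusted p = 0.00119) with siRNA 878.

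Rsad2 and Cmpk2 are neighbours on chromosome 12 from 26442743 to 26479837. Rsad2 encodes viperin, which makes a chain-terminating nucleotide, and Cmpk2 a nucleotide kinase. Rsad2 had 19.4, 21.8 and 23.1 CPM with siRNA 644, 28.9, 22.5 and 36.9 CPM with siRNA 878, and 77.5, 68.3 and 78.4 CPM in control. The highest siRNA library, siRNA 878 replicate 3, was far below the lowest control library. On the log2 scale the change was -1.80 (SE 0.169, edgeR adjusted p = 1.04e-04) with siRNA 644 and -1.34 (SE 0.166, edgeR adjusted p = 4.32e-04) with siRNA 878. Cmpk2 was at 4.15 ± 0.129 CPM with siRNA 644, 4.94 ± 1.43 CPM with siRNA 878 and 13.8 ± 0.845 CPM in control (SD, n = 3 each), and its log2 fold change was -1.73 (SE 0.194, edgeR adjusted p = 2.58e-04) with siRNA 644 and -1.48 (SE 0.191, edgeR adjusted p = 5.51e-04) with siRNA 878.

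Both membrane restriction factors fell with both siRNAs. Bst2 (NCBI gene 69550, chromosome 8, 71534255 to 71537472) encodes tetherin, which holds budding virus particles at the cell surface, and had 188, 144 and 174 CPM with siRNA 644, 144, 239.7 and 139 CPM with siRNA 878, and 277, 346 and 303 CPM in control. The siRNA 878 libraries were spread widely, with replicate 2 well above the other two, but no siRNA library reached the lowest control library. Its log2 fold change was -0.87 (SE 0.209, edgeR adjusted p = 0.0131) with siRNA 644 and -0.83 (SE 0.209, edgeR adjusted p = 0.0162) with siRNA 878, and the siRNA 878 call was lost without siRNA 878 replicate 1 (-0.71, edgeR adjusted p = 0.0591). Ifitm3 (NCBI gene 66141, chromosome 7, 141009590 to 141010744), which blocks fusion of virus with endosomes, had 84.0, 78.8 and 92.4 CPM with siRNA 644, 79.5, 108 and 76.4 CPM with siRNA 878, and 186, 242 and 214 CPM in control. Control values were above all siRNA values, with siRNA 878 replicate 2 again the highest of its group. This gave a log2 fold change of -1.33 (SE 0.151, edgeR adjusted p = 2.84e-04) with siRNA 644 and -1.28 (SE 0.151, edgeR adjusted p = 3.35e-04) with siRNA 878, so that the mean was 39.7% of control with siRNA 644 and 41.1% with siRNA 878.

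**Figure D3:**
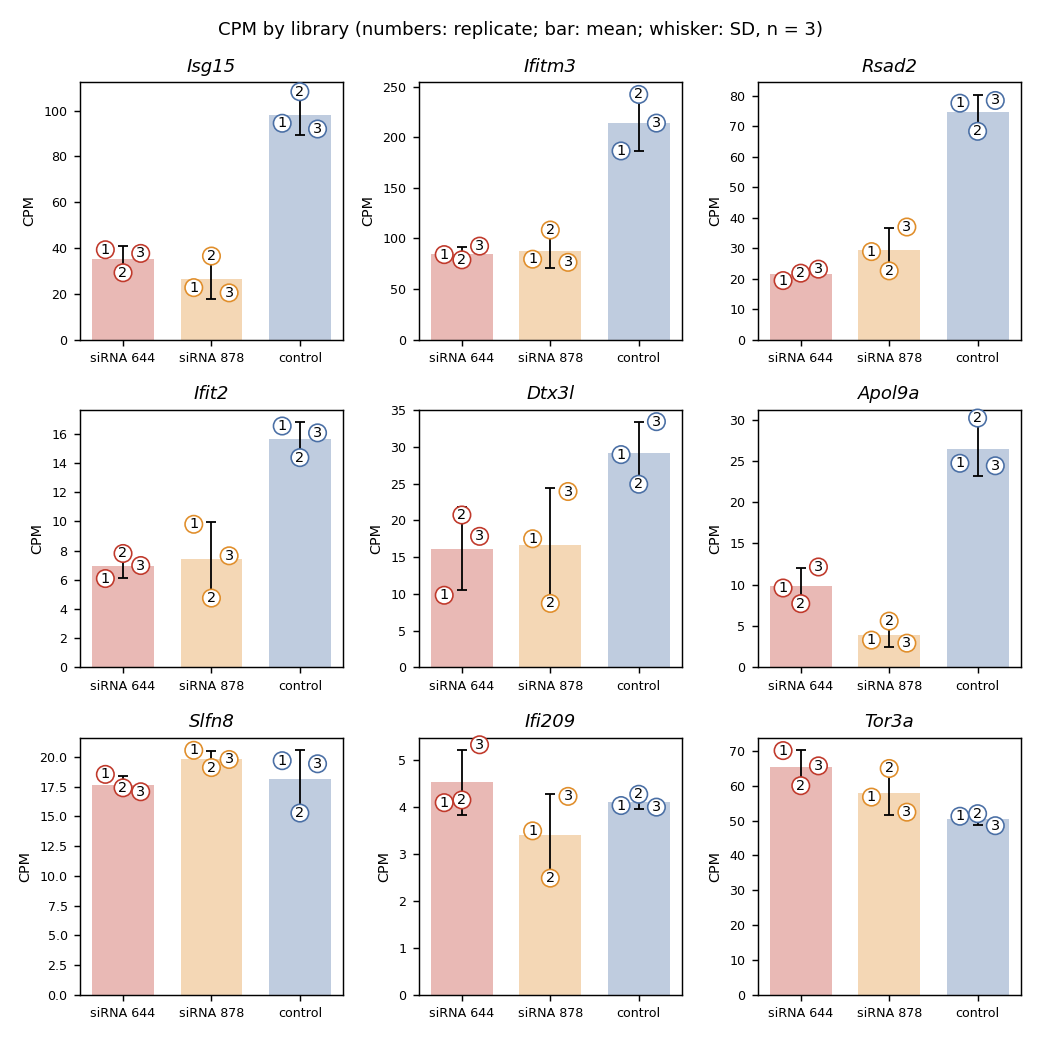
CPM of 9 genes in each library, numbered by replicate, with bars at the group mean and whiskers of 1 SD (n = 3). Isg15, Ifitm3, Rsad2, Ifit2 and Apol9a lie well below control with both siRNAs. Dtx3l lies below control with a wide spread, in part only just, and was not called with either siRNA. Slfn8 and Ifi209 overlap control, and Tor3a lies above control.

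Members of the PARP family attach ADP-ribose to proteins, and DTX3L is a ubiquitin ligase that pairs with PARP9. Of these 5 genes, 3 fell with siRNA 644 and 2 with siRNA 878. Parp12 (NCBI gene 243771, chromosome 6) had 33.05, 37.05 and 36.8 CPM with siRNA 644, 34.7, 32.3 and 37.4 CPM with siRNA 878, and 79.2, 70.2 and 81.4 CPM in control. The siRNA libraries lay close together and all were far below control, and the log2 fold change was -1.11 (SE 0.0948, edgeR adjusted p = 6.02e-05) with siRNA 644 and -1.14 (SE 0.0949, edgeR adjusted p = 5.69e-05) with siRNA 878. Parp9 (NCBI gene 80285, chromosome 16) had 39.1, 43.8 and 43.1 CPM with siRNA 644, 48.01, 36.8 and 46.5 CPM with siRNA 878, and 73.8, 72.3 and 71.8 CPM in control. Its groups did not overlap with control either, and the log2 fold change was -0.79 (SE 0.107, edgeR adjusted p = 7.47e-04) with siRNA 644 and -0.73 (SE 0.107, edgeR adjusted p = 0.00105) with siRNA 878. Parp14 was at 30.4 ± 3.42 CPM with siRNA 644, 38.6 ± 6.97 CPM with siRNA 878 and 47.6 ± 8.26 CPM in control (SD, n = 3 each), and its log2 fold change was -0.65 (SE 0.172, edgeR adjusted p = 0.0202) with siRNA 644 and -0.30 (SE 0.171, edgeR adjusted p = 0.213) with siRNA 878. The siRNA 644 call of Parp14 was lost without siRNA 644 replicate 1, control replicate 1 or control replicate 3 (edgeR adjusted p = 0.0777 to 0.0795).

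Dtx3l (NCBI gene 209200, chromosome 16), which overlaps Parp9 on the chromosome, had 9.81, 20.8 and 17.8 CPM with siRNA 644, 17.5, 8.699 and 23.9 CPM with siRNA 878, and 28.98, 24.9 and 33.5 CPM in control. Every siRNA library lay below every control library, but siRNA 644 replicate 1 and siRNA 878 replicate 2 were far under the others of their groups. The log2 fold change came to -0.85 (SE 0.361, edgeR adjusted p = 0.104) with siRNA 644 and -0.80 (SE 0.361, edgeR adjusted p = 0.125) with siRNA 878, which did not pass. Without siRNA 878 replicate 2 the siRNA 644 value passed (-0.85, edgeR adjusted p = 0.0156), as did the siRNA 878 value without siRNA 878 replicate 3 (-1.15, 0.0449). Without siRNA 878 replicate 2 the siRNA 878 value of Dtx3l was -0.48 and did not pass (edgeR adjusted p = 0.181). With siRNA 644 replicate 1 left out as well, both passed at smaller values of -0.59 with siRNA 644 (edgeR adjusted p = 0.0158) and -0.48 with siRNA 878 (edgeR adjusted p = 0.0366). The authors' deposited table has a q-value for Dtx3l of 0.00190 with siRNA 644 and 0.0955 with siRNA 878. Parp10 (NCBI gene 671535, chromosome 15) had 34.99, 29.2 and 34.5 CPM with siRNA 644, 27.3, 37.96 and 22.4 CPM with siRNA 878, and 38.5, 40.4 and 39.8 CPM in control. The siRNA libraries were all below control, siRNA 878 replicate 2 only just, and the log2 fold change was -0.27 (SE 0.173, edgeR adjusted p = 0.272) with siRNA 644 and -0.44 (SE 0.174, edgeR adjusted p = 0.0867) with siRNA 878. Without siRNA 878 replicate 2, both values passed (-0.27 with edgeR adjusted p = 0.0391 for siRNA 644, -0.66 with 0.00107 for siRNA 878). With offsets for GC content and length the siRNA 644 value of Parp10 was -0.45 and passed (edgeR adjusted p = 0.003398).

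Schlafen proteins act on transfer RNA and on cell proliferation, and their 3 genes lie together on chromosome 11 from 82951349 to 83070678. They did not move alike. Slfn2 (NCBI gene 20556, chromosome 11) had 35.5, 31.6 and 37.1 CPM with siRNA 644, 31.4, 42.8 and 29.6 CPM with siRNA 878, and 80.7, 89.2 and 82.2 CPM in control. All siRNA libraries lay far below all control libraries, and the log2 fold change was -1.27 (SE 0.1404, edgeR adjusted p = 2.35e-04) with siRNA 644 and -1.28 (SE 0.141, edgeR adjusted p = 2.39e-04) with siRNA 878. Slfn8 (NCBI gene 276950, chromosome 11) had 18.5, 17.4 and 17.1 CPM with siRNA 644, 20.5, 19.1 and 19.8 CPM with siRNA 878, and 19.7, 15.3 and 19.4 CPM in control. Each siRNA group overlapped control, and the log2 fold change was -0.04 (SE 0.113, edgeR adjusted p = 0.824) with siRNA 644 and 0.13 (SE 0.113, edgeR adjusted p = 0.425) with siRNA 878. Slfn5 was at 2.82 ± 0.308 CPM with siRNA 644, 2.46 ± 0.609 CPM with siRNA 878 and 4.13 ± 0.767 CPM in control (SD, n = 3 each), with a log2 fold change of -0.55 (SE 0.206, edgeR adjusted p = 0.0716) with siRNA 644 and -0.75 (SE 0.2097, edgeR adjusted p = 0.0248) with siRNA 878. The siRNA 644 value of Slfn5 passed without siRNA 878 replicate 2 (-0.55, edgeR adjusted p = 0.0195), and the siRNA 878 call was lost without siRNA 878 replicate 1, siRNA 878 replicate 3 or control replicate 3 (edgeR adjusted p = 0.0672 to 0.0961). It was lost too when only siRNA 878 and control were fitted (edgeR adjusted p = 0.0529) and with offsets for GC content and length (edgeR adjusted p = 0.0638).

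PYHIN proteins of the Ifi200 family bind DNA in the nucleus and cytoplasm, and the 3 genes of the set lie on chromosome 1 from 173630859 to 173942866. Ifi204 (NCBI gene 15951, chromosome 1) had 38.6, 47.6 and 42.96 CPM with siRNA 644, 53.3, 30.7 and 64.5 CPM with siRNA 878, and 132, 122 and 129.7 CPM in control. All siRNA libraries lay far below control, with siRNA 878 replicate 2 the lowest of all. On the log2 scale the change was -1.57 (SE 0.228, edgeR adjusted p = 0.00107) with siRNA 644 and -1.37 (SE 0.226, edgeR adjusted p = 0.00195) with siRNA 878. Ifi203 (NCBI gene 15950, chromosome 1) had 19.8, 26.3 and 23.8 CPM with siRNA 644, 24.5, 15.9 and 28.2 CPM with siRNA 878, and 48.1, 41.5 and 47.1 CPM in control. Its siRNA libraries all lay below control, and the log2 fold change was -0.97 (SE 0.197, edgeR adjusted p = 0.00607) with siRNA 644 and -0.99 (SE 0.198, edgeR adjusted p = 0.00523) with siRNA 878. Ifi209 (NCBI gene 236312, chromosome 1) had 4.09, 4.15 and 5.33 CPM with siRNA 644, 3.49, 2.48 and 4.23 CPM with siRNA 878, and 4.03, 4.27 and 3.997 CPM in control. Here the groups overlapped and no change was detected at this depth, with log2 fold changes of 0.14 (SE 0.195, edgeR adjusted p = 0.607) with siRNA 644 and -0.26 (SE 0.199, edgeR adjusted p = 0.349) with siRNA 878. Genes of this cluster share sequence, and Ifi204 overlaps Ifi207 in the table, so reads could be divided between them.

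Of 4 genes placed here in a nuclear and chromatin-associated group, 4 fell with siRNA 644 and 3 with siRNA 878. Phf11b and Phf11d, which encode PHD-finger proteins, are neighbours on chromosome 14 from 59320964 to 59370675. Phf11d (NCBI gene 219132, chromosome 14) had 25.3, 21.04 and 25.9 CPM with siRNA 644, 22.03, 25.02 and 23.8 CPM with siRNA 878, and 68.8, 66.2 and 63.8 CPM in control. The replicates were close and the groups far apart from control, with a log2 fold change of -1.46 (SE 0.101, edgeR adjusted p = 1.96e-05) with siRNA 644 and -1.49 (SE 0.101, edgeR adjusted p = 2.001e-05) with siRNA 878. Phf11b (NCBI gene 236451, chromosome 14) had 20.5, 15.9 and 20.4 CPM with siRNA 644, 13.6, 19.3 and 13.9 CPM with siRNA 878, and 35.8, 43.8 and 39.6 CPM in control. No siRNA library reached the lowest control library, and the log2 fold change was -1.07 (SE 0.164, edgeR adjusted p = 0.00141) with siRNA 644 and -1.35 (SE 0.165, edgeR adjusted p = 4.07e-04) with siRNA 878. Sp100, which encodes a component of nuclear bodies, was at 11.8 ± 1.498 CPM with siRNA 644, 11.1 ± 0.4703 CPM with siRNA 878 and 28.4 ± 0.588 CPM in control (SD, n = 3 each). Its log2 fold change was -1.26 (SE 0.108, edgeR adjusted p = 5.98e-05) with siRNA 644 and -1.36 (SE 0.108, edgeR adjusted p = 4.65e-05) with siRNA 878. Trim30a, a TRIM-family gene, was at 3.98 ± 0.771 CPM with siRNA 644, 5.24 ± 2.13 CPM with siRNA 878 and 8.39 ± 0.431 CPM in control (SD, n = 3 each), with a log2 fold change of -1.07 (SE 0.281, edgeR adjusted p = 0.0189) with siRNA 644 and -0.67 (SE 0.275, edgeR adjusted p = 0.0946) with siRNA 878. The siRNA 644 call of Trim30a was lost without siRNA 644 replicate 1 or 3 or any 1 control library (edgeR adjusted p = 0.0511 to 0.0749), and the siRNA 878 value passed without siRNA 878 replicate 3 (-0.96, edgeR adjusted p = 0.0287).

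Ifi44 had the largest fall of the set with siRNA 644 relative to control. Its libraries held 4, 5 and 13 counts with siRNA 644, 14, 7 and 10 with siRNA 878 and 58, 57 and 74 in control, which made 0.2099, 0.247 and 0.672 CPM with siRNA 644, 0.719, 0.395 and 0.503 CPM with siRNA 878, and 2.78, 2.798 and 3.56 CPM in control. Every siRNA library was far below every control library. This gave a log2 fold change of -3.00 (SE 0.3601, edgeR adjusted p = 3.78e-04) with siRNA 644 and -2.48 (SE 0.3403, edgeR adjusted p = 7.58e-04) with siRNA 878, and the few counts in the siRNA libraries limit how well that size is known. Lgals3bp (NCBI gene 19039, chromosome 11), which encodes a secreted glycoprotein, had 177, 147 and 186 CPM with siRNA 644, 152, 226 and 143 CPM with siRNA 878, and 274, 303 and 292 CPM in control. Replicate 2 was the highest of the siRNA 878 libraries, and still below control, with a log2 fold change of -0.77 (SE 0.1702, edgeR adjusted p = 0.00904) with siRNA 644 and -0.74 (SE 0.1701, edgeR adjusted p = 0.0105) with siRNA 878. Ifi35 (NCBI gene 70110, chromosome 11) had 50.3, 41.2 and 46.9 CPM with siRNA 644, 36.9, 52.6 and 37.2 CPM with siRNA 878, and 64.1, 68.5 and 61.3 CPM in control. The siRNA libraries were below control, and the log2 fold change was -0.49 (SE 0.145, edgeR adjusted p = 0.0326) with siRNA 644 and -0.61 (SE 0.146, edgeR adjusted p = 0.0121) with siRNA 878. With siRNA 644 the call of Ifi35 was lost without any 1 of the siRNA 644 or control libraries (edgeR adjusted p = 0.0529 to 0.0969).

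Rtp4, which encodes a chaperone of G protein-coupled receptors that also restricts viruses, was at 20.3 ± 4.45 CPM with siRNA 644, 18.3 ± 4.09 CPM with siRNA 878 and 52.6 ± 2.04 CPM in control (SD, n = 3 each). The log2 fold change came to -1.37 (SE 0.197, edgeR adjusted p = 0.00101) with siRNA 644 and -1.52 (SE 0.198, edgeR adjusted p = 5.58e-04) with siRNA 878. Xaf1, which encodes an antagonist of the apoptosis inhibitor XIAP, was at 23.9 ± 3.93 CPM with siRNA 644, 22.6 ± 5.496 CPM with siRNA 878 and 43.4 ± 1.39 CPM in control (SD, n = 3 each), with a log2 fold change of -0.86 (SE 0.176, edgeR adjusted p = 0.00609) with siRNA 644 and -0.94 (SE 0.177, edgeR adjusted p = 0.00391) with siRNA 878. Tor3a (NCBI gene 30935, chromosome 1), which encodes a torsin-family ATPase, went the other way, with 70.1, 60.02 and 65.7 CPM with siRNA 644, 56.7, 64.96 and 52.4 CPM with siRNA 878, and 51.2, 51.99 and 48.5 CPM in control. Each siRNA library was above each control library, as for 28.0% of all tested genes with siRNA 644 and 22.5% with siRNA 878, and the log2 fold change was 0.37 (SE 0.0992, edgeR adjusted p = 0.0216) with siRNA 644 and 0.20 (SE 0.0993, edgeR adjusted p = 0.163) with siRNA 878. The siRNA 644 call was lost without siRNA 644 replicate 1, siRNA 644 replicate 3, control replicate 1 or control replicate 3 (edgeR adjusted p = 0.0664 to 0.0849).

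**Figure D4:**
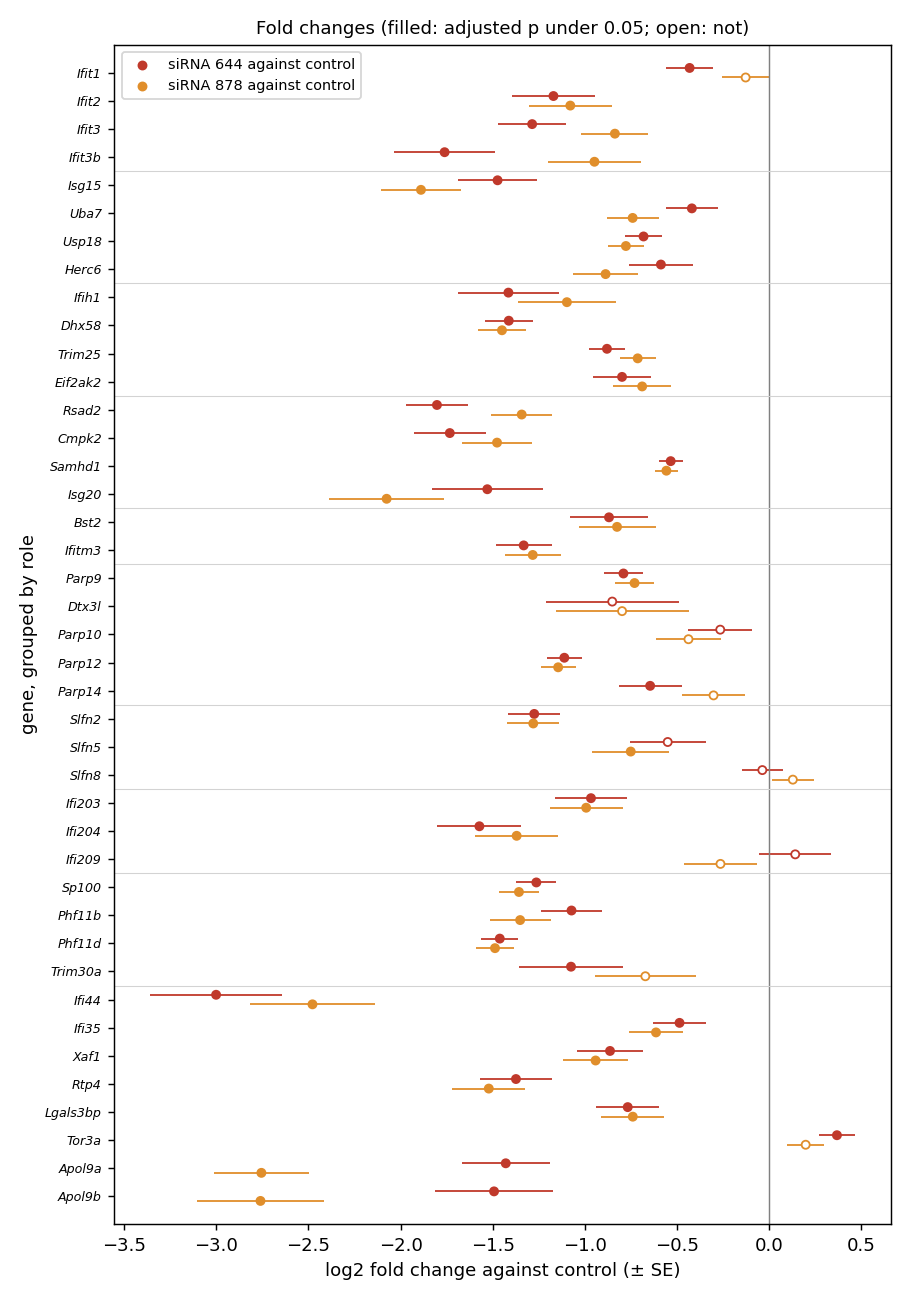
log2 fold change ± SE of each tested gene for siRNA 644 (red) and siRNA 878 (orange) against control, grouped by role, with filled points where the adjusted p was under 0.05. Most points lie left of 0, Ifi44 lies farthest left with siRNA 644, and Apol9a and Apol9b lie farthest left with siRNA 878.

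The second comparison asks whether the siRNAs differed from each other. Of the 41 genes, 1 was lower with siRNA 878 than with siRNA 644 and 0 were higher, against 1.19% and 0.315% of all tested genes (edgeR). At an unadjusted p under 0.05, 4 of the 41 (9.76%) were higher and 2 (4.88%) lower with siRNA 878, near the 6.28% and 8.83% of all tested genes. By DESeq2 and limma after adjustment 0 were higher, against 2.33% of all tested genes by DESeq2 and 0.579% and 0.528% by limma with the larger and the smaller pseudocount. The gene was Apol9a (NCBI gene 223672, chromosome 15, 77403789 to 77411080), of a family of apolipoprotein L genes, with 9.601, 7.71 and 12.2 CPM with siRNA 644, 3.29, 5.59 and 2.92 CPM with siRNA 878, and 24.7, 30.2 and 24.4 CPM in control. The 3 groups were fully separate, with siRNA 878 lowest. Relative to control its log2 fold change was -1.43 (SE 0.239, edgeR adjusted p = 0.00224) with siRNA 644 and -2.75 (SE 0.259, edgeR adjusted p = 9.96e-05) with siRNA 878, and between siRNA 878 and siRNA 644 it was -1.33 (SE 0.259, edgeR adjusted p = 0.0452). That call was lost without 8 of the 9 libraries in turn (edgeR adjusted p = 0.0747 to 0.191), and held without siRNA 878 replicate 2 (a log2 fold change of -1.65). It was lost as well when only the siRNA libraries were fitted (edgeR adjusted p = 0.183).

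Apol9b (NCBI gene 71898, chromosome 15, 77729047 to 77736382), whose promoter window matches that of Apol9a, had 11.5, 8.695 and 12.7 CPM with siRNA 644, 2.57, 7.46 and 3.72 CPM with siRNA 878, and 25.1, 36.7 and 30.8 CPM in control. All siRNA 878 libraries were below all siRNA 644 libraries, which were below control, and the log2 fold change was -1.49 (SE 0.3203, edgeR adjusted p = 0.00772) with siRNA 644 and -2.76 (SE 0.345, edgeR adjusted p = 4.57e-04) with siRNA 878. Between siRNA 878 and siRNA 644 it was -1.27 (SE 0.344, edgeR adjusted p = 0.113), and it passed without siRNA 878 replicate 2 (-1.79, edgeR adjusted p = 0.00390). Reads of these near-identical genes could be divided between them, so their values are not independent. In the authors' deposited table the log2 fold change of siRNA 878 over siRNA 644 was -1.32 for Apol9a (q = 0.00549) and -1.26 for Apol9b (q = 0.0712).

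Without siRNA 878 replicate 2, 11 of the 41 genes differed between the siRNAs, and 2072 of all tested genes (17.5%) did. Isg15 (-0.70), Uba7 (-0.48), Isg20 (-0.99), Parp10 (-0.39), Phf11b (-0.45), Apol9a and Apol9b were then lower with siRNA 878. Rsad2 (0.63), Cmpk2 (0.48), Ifi204 (0.46) and Trim30a (0.69) were then higher with siRNA 878 (edgeR adjusted p = 0.00305 to 0.0482 over the 11). The genes then lower had transcripts of 52.8% to 57.9% GC, apart from Phf11b at 43.8%, and those then higher had 39.5% to 48.3%. The part of GC content in these differences was not tested. With all 9 libraries, 2 genes were lower without overlap in siRNA 878 libraries, Apol9a and Apol9b, against 10.6% of all tested genes. The 3 genes that were higher without overlap were Ifit1, Ifit3b and Slfn8, against 7.98% of all tested genes.

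Replicate 2 was the lowest of the siRNA 878 libraries for 20 of the 41 genes and the highest for 20. Its deviation moved with the base composition of the transcripts. Among the 13 genes with the lowest GC content, 38.4% to 44.4%, replicate 2 was a median of 0.51 log2 units below the mean of replicates 1 and 3, and it was above that mean for 2 genes. Among the 13 genes with the highest GC content, 50% to 57.9%, it was a median of 0.61 above, and above for 12 genes. Across the 41 genes the deviation of this library from its group mean correlated with GC content at r = 0.721, and across 11565 genes at r = 0.601, with genes of 1 library as the points. Over the 41 genes r was -0.566 in siRNA 878 replicate 1 and -0.686 in siRNA 878 replicate 3. Deviations cancel out within a group, so the r values of its libraries are not independent. In the siRNA 644 and control libraries r ran from -0.511 in siRNA 644 replicate 2 to 0.542 in control replicate 2. Transcripts of the set had a median GC content of 47.5%, against 50.7% over all tested genes. In a fit that corrected for GC content and length of transcripts, added once the data had been seen, 36 of the 41 genes fell with siRNA 644 and 34 with siRNA 878, against 23.02% and 21.6% of all genes in that fit. Without siRNA 878 replicate 2 and siRNA 644 replicate 1, 38 fell with siRNA 644 and 35 with siRNA 878, against 21.6% and 21.3% of all genes tested then.

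**Figure D5:**
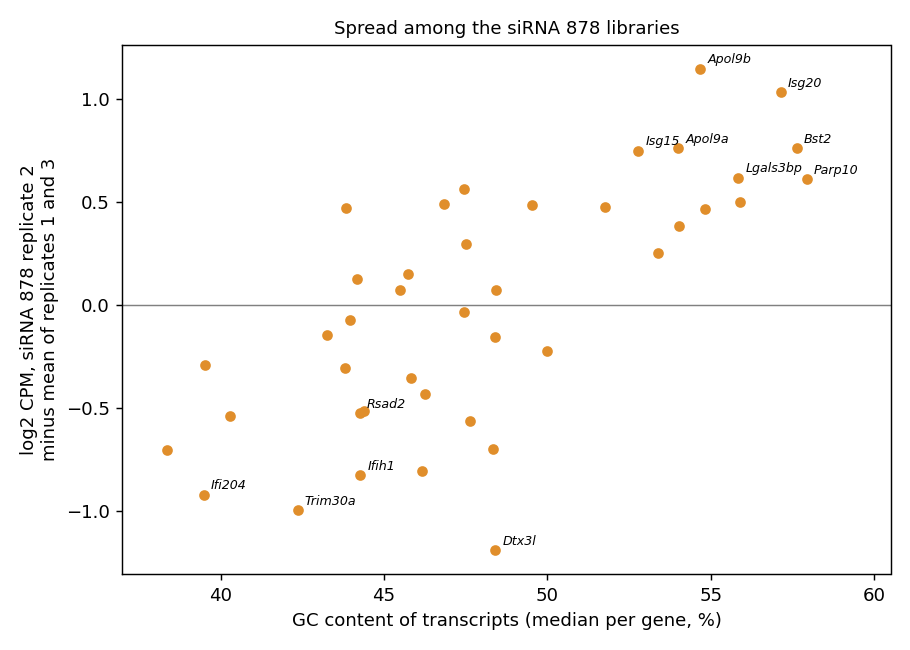
log2 CPM of siRNA 878 replicate 2 minus the mean of siRNA 878 replicates 1 and 3, for each of the 41 genes, against the median GC content of the gene's transcripts (%). Points rise from left to right, from Ifi204 and Trim30a below 0 to Isg20, Bst2 and Apol9b above 0.

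Promoters were searched 250 bases before to 50 bases after the RefSeq start sites, which were at hand for 33 of the 42 genes. The ISRE core, on either strand and with overlapping matches allowed, was present in 16 of the 33 (48.5%), against 3.88% of 9485 tested genes and 3.99% of 27025 genes with a window. Among tested genes of the set with an ISRE core, 14 of 16 fell with siRNA 644 and 13 of 16 with siRNA 878, and the medians were -1.18 with siRNA 644 and -0.97 with siRNA 878. Among those without one, 15 of 17 fell with each siRNA, and the medians were -0.88 with siRNA 644 and -0.94 with siRNA 878. Ifi44, with the largest fall under siRNA 644, had no match in its window, whereas Slfn8 had 1. Only a spacing of exactly 2 bases was searched. The windows of Ifi44, Phf11d and Lgals3bp, for example, hold GAAA or TTTC repeats at other spacings. A window without a match can therefore still hold an ISRE. Over all tested genes, 23.9% of those with an ISRE core fell with siRNA 644 and 24.5% with siRNA 878, against 14.4% and 14.9% of those without. The 368 genes with a core include the 16 of the set, so these shares are not independent of it. Of the 368, 65 rose with each siRNA, and of the 9117 without a core 1512 rose with siRNA 644 and 1459 with siRNA 878. The medians with a core were -0.036 with siRNA 644 and -0.0592 with siRNA 878, and without one -0.0053 and 0.007. Only letters were searched, and binding was not measured.

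Of 27 symbols listed for genes that start, carry or restrain the interferon signal, 22 were in the table and 21 were tested. Rigi, Tmem173 and Mb21d1, which were not in the table, are other symbols of Ddx58, Sting1 and Cgas, which were tested. With siRNA 644, 6 fell and 4 rose, beside the 15.0% and 16.6% of all tested genes given above. With siRNA 878, 6 fell and 3 rose, beside 15.5% and 16.0%, so the numbers that rose were near those shares. Ifnb1, which encodes interferon beta, had 0 or 1 count in each of the 9 libraries. Stat2 and Irf9, which encode subunits of ISGF3, fell with both siRNAs. The log2 fold changes of Stat2 were -0.36 (SE 0.0771, edgeR adjusted p = 0.00809) with siRNA 644 and -0.39 (SE 0.0771, edgeR adjusted p = 0.00528) with siRNA 878. For Irf9 they were -0.41 (SE 0.08598, edgeR adjusted p = 0.00725) with siRNA 644 and -0.54 (SE 0.0862, edgeR adjusted p = 0.00159) with siRNA 878. Irf7, which drives transcription of interferon genes and is itself induced by interferon, had 149, 111 and 158 CPM with siRNA 644, 88.01, 165 and 91.6 CPM with siRNA 878, and 418, 541 and 447 CPM in control. All its siRNA libraries lay far below its control libraries, with a log2 fold change of -1.75 (SE 0.251, edgeR adjusted p = 0.00101) with siRNA 644 and -2.03 (SE 0.253, edgeR adjusted p = 4.51e-04) with siRNA 878. Neither receptor subunit fell. The log2 fold change of Ifnar1 was 0.15 (SE 0.06502, edgeR adjusted p = 0.119) with siRNA 644 and 0.22 (SE 0.06502, edgeR adjusted p = 0.0287) with siRNA 878, and that of Ifnar2 was 0.34 (SE 0.0902, edgeR adjusted p = 0.0199) with siRNA 644 and 0.17 (SE 0.0902, edgeR adjusted p = 0.185) with siRNA 878.

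In the authors' deposited table, 36 of the 42 genes had a negative log2 fold change with q under 0.05 for siRNA 644 against control, and 1 had a positive one. For siRNA 878 against control the numbers were 33 and 0, and for siRNA 878 over siRNA 644 they were 1 and 0. The matching shares over all genes of the authors' table are not given here, so these counts describe the set alone.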

How the data were processed

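Per the labels' protocols, RNA of the cells was made into libraries with an mRNA kit. The deposited table holds estimated counts, which are fractional where the authors' counting divided reads. It also holds FPKM values that the authors computed, and log2 fold changes with q-values for 3 comparisons of theirs. Tools recorded in the submitters' processing notes are Bowtie2 2.4.5 and DESeq2 1.34.0, with mm39 as the build. How reads were counted, with which strand setting and annotation, is not given in the sources used here. Of the 42 genes of the set, 25 had fractional counts in some library and 10 overlap another gene of the table. Positions are the table's own. They equal those of RefSeq GRCm38.p6 for 33 of the 42 genes, so their build is not settled. Columns with TPM (9) and group averages (9) were not used.

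Counts were rounded and filtered with filterByExpr of edgeR 4.0.16 in R 4.3.3, which asked for a count of 10 in a group's worth of libraries and 15 in all. TMM factors were 0.898 to 1.04. The quasi-likelihood F-test was fitted with group as the only term on all 9 libraries, and p-values were adjusted by Benjamini-Hochberg over 11739 genes and called under 0.05. An SE is the log2 fold change divided by the square root of F, without its sign. On simulated counts for 11739 genes, 80.6% of genes changed 2-fold were found for siRNA 644 against control and 86.6% for siRNA 878 against control, and 22.4% and 31.3% of genes changed 1.5-fold. In each simulation 67 genes were changed 1.5-fold, 67 2-fold and 66 4-fold, all drawn from genes of at least 1 CPM. Far more genes were called in the data (1759 lower and 1951 higher with siRNA 644), so these shares need not hold there. GC content is the median over a gene's GENCODE transcripts, at hand for 97.6% of the genes.

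The genes of the set, the other lists and the tests were chosen with earlier results of these data known. A gene of the signalling list and a second promoter motif are not reported here. Values in every library are given, per role group, for the 2 genes of highest FPKM and the 1 of largest mean change, and besides for the gene called between siRNAs and for genes higher or not called with both. Rsad2 and Apol9b were added after their values were seen. Alternatives were RLE scaling, unscaled library sizes, no filter, a filter of 1 CPM in 3 libraries, DESeq2 1.42.0, limma 3.58.1 on log2(FPKM + 1) and log2(FPKM + 0.1), a replicate block, fits of the compared groups only, and leaving out 1 library at a time. Fits without siRNA 644 replicate 1 and siRNA 878 replicate 2, and fits with GC and length offsets, were added once the data had been seen.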

Additional observations from a re-analysis of the deposited data

Results flagged for a closer look

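Apol9a was singled out because its response differed between the siRNAs by a test of the difference itself. Its log2 fold change of siRNA 878 over siRNA 644 was -1.33 (SE 0.259, edgeR quasi-likelihood adjusted p = 0.0452), with all 3 siRNA 878 libraries (3.29, 5.59 and 2.92 CPM) below all 3 siRNA 644 libraries (9.60, 7.71 and 12.2 CPM). Of all tested genes, 10.6% showed this arrangement and 1.19% were called lower. The call was lost without most single libraries (edgeR adjusted p = 0.0747 to 0.1905). It was also lost with the replicate block (0.148) and with only the siRNA libraries fitted (0.183).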

How the results depend on the processing

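No gene of the set called in any of the 4 comparisons changed direction under any alternative. Of 35 genes lower with siRNA 644, 29 passed in all 20 alternatives, and of 33 lower with siRNA 878, 29 did. The number of genes of the set called was 32 with siRNA 644 and 32 with siRNA 878 under the replicate block, against 36 and 33 without it. The block ended the siRNA 644 calls of Ifit1 (edgeR adjusted p = 0.0515), Uba7 (0.0835), Herc6 (0.0678) and Ifi35 (0.0646), the siRNA 878 call of Slfn5 (0.0562) and the call of Apol9a between the siRNAs (0.148). When 1 library was left out it was 29 to 39 with siRNA 644, 31 to 34 with siRNA 878 and 32 to 38 for the mean of both siRNAs. Between siRNA 878 and siRNA 644 it was 1, and 2 with DESeq2, 2 with limma on log2(FPKM + 1), 0 with the replicate block, 0 with only the groups compared, 6 without siRNA 644 replicate 1 and siRNA 878 replicate 2, 4 with GC and length offsets (2 lower, 2 higher) and 0 to 11 when 1 library was left out. Over all tested genes, 177 were called between the siRNAs, and 298 with library sizes alone, 688 with DESeq2, 370 and 323 with limma at the larger and smaller pseudocount, 14 with the replicate block, 5 with only the groups compared, 863 without both libraries named above, 951 with the offsets (419 lower, 532 higher, against 140 and 37) and 12 to 2072 when 1 library was left out. Leaving out 1 library gave 2343 to 6004 genes with siRNA 644 (3710 with all), 2455 to 4824 with siRNA 878 (3696 with all) and 2869 to 5876 for the mean of both (4411 with all). The lowest count of each came without control replicate 1, and 6004 came without siRNA 878 replicate 2. Without siRNA 644 replicate 3 it was 2379 with siRNA 644, and without control replicate 3 it was 2912 for the mean. Between the siRNAs, leaving out siRNA 878 replicate 2 gave the 2072 genes and leaving out any other library gave 12 to 100. Without siRNA 644 replicate 1 and siRNA 878 replicate 2 together, the counts against control were 5175 with siRNA 644, 5051 with siRNA 878 and 5829 for the mean. The cause of these shifts was not tested. Libraries with the same replicate number correlated at r = -0.686 to 0.548 in their deviations from the group means. Replicates 2 and 3 of siRNA 878 deviated together with those of control (0.548 and 0.408) while replicate 1 did not (0.09), and all 3 siRNA 644 libraries correlated negatively with their numbers in both other groups, so the numbers were not taken as pairs. At this depth, genes with few counts such as Ifi44 and Zbp1 limit what can be measured.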
